A study of Mus musculus with 6 samples.

Results

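The genes described here encode the surface proteins through which alveolar macrophages, phagocytes that live in the airspaces of the lung, deliver co-stimulatory or inhibitory signals to T cells. They are Cd80, Cd86, Icosl, Cd274, Pdcd1lg2, Cd276, Cd40, Cd83 and Havcr2. They were chosen by name, with earlier results of these data known, and all 9 of the 9 were among the 25206 genes measured. Cells were obtained from uninfected Zcchc6+/+ and Zcchc6-/- mice by bronchoalveolar lavage, and total RNA was profiled on Affymetrix Mouse Gene ST 2.0 arrays, 3 per genotype. Zcchc6 is an RNA uridyltransferase, an enzyme that adds uridines to the ends of RNAs. The Zcchc6-/- allele lacks exons 16 and 17. It was made with a Cre transgene driven by the ubiquitous EIIa promoter, which deletes in the germline, and the transgene was bred out before heterozygotes were intercrossed. The deletion is therefore present in every cell of the animal and not in macrophages alone. Experiments used mice of both sexes at 8 to 16 weeks of age. The sample labels give neither the sex nor the age of single samples, and no sorting step after lavage is described.

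T cells that recognise antigen need a further signal from the presenting cell. Ligands of the B7 family supply it by binding CD28 or ICOS, and other members of the family restrain T cells through CTLA-4 or PD-1. CD40 works in the opposite direction, receiving a signal from activated T cells that makes the presenting cell express more B7 ligands. Resting alveolar macrophages are known as weak stimulators of T cells. Cd40 and Havcr2 encode receptors, and Cd83 a maturation marker, so that 6 of the 9 genes encode B7 ligands in the strict sense.

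Values are log2 expression from the Robust Multiarray Average (RMA), which corrects background, equalises the distributions of the arrays and combines the probes of a gene. Probe sets of different genes respond differently, so differences are taken between genotypes. The position of a gene among all genes is given only as a description, not as its transcript abundance. The labels number the samples without saying that they are separate mice, and p-values then measure only the spread between these samples. In 14 measured markers of alveolar macrophages, among them Siglecf, Itgax and Marco, the mean log2 level was 10.51 to 10.59 on the Zcchc6+/+ arrays. It was 10.32 to 10.51 on the Zcchc6-/- arrays. The mean was lower in Zcchc6-/- for 11 of the 14 markers and higher for 3. For 5 of the 14 the genotypes did not overlap, 4 lower and 1 higher in Zcchc6-/-, beside 10.2% of all genes in either direction. The transcript targeted in these mice, Zcchc6 (now Tut7), averaged 8.71 ± 0.06 (SD, n = 3) on the Zcchc6+/+ arrays and was lower on every Zcchc6-/- array, with a mean of 8.01 ± 0.28 (SD, n = 3). Zcchc6-/- replicate 1 stood apart, both over the whole table and in T cell transcripts. Its mean correlation with the other arrays was 0.982, against 0.987 to 0.990 for the rest. It was the lowest array for 25.7% and the highest for 22.6% of all genes. It was the highest array for 13 of 14 T cell markers, whose mean was 7.0 there, 4.26 and 4.38 on the other Zcchc6-/- arrays and 4.15 to 4.68 on the Zcchc6+/+ arrays. Xist, which silences an X chromosome in females, was low on 1 array of each genotype, Zcchc6+/+ replicate 1 (3.78) and Zcchc6-/- replicate 2 (3.27), against 10.04 to 10.73 elsewhere. On these arrays Ddx3y, a gene of the Y chromosome, was at 6.59 and 6.87, against 2.28 to 2.96 elsewhere. That is the pattern of male samples, with female samples on the other arrays.

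None of the 9 ligand genes differed between the genotypes after adjustment. Their adjusted p lay between 0.997 and 0.998 in limma, which fits each gene on all 6 arrays and shares the estimate of variance across genes. Of all 25206 genes, 0% passed an adjusted p of 0.05. The targeted gene Zcchc6 was among those not called, with a log2 difference of -0.70 and an adjusted p of 0.774 in limma. A gene that is not called is therefore not shown to be unchanged. Without adjustment, 0 of the 9 and 5.03% of all genes had a p under 0.05. In 0 of the 9 did the arrays of one genotype lie wholly above those of the other, against 10.2% of all genes. The mean was higher in Zcchc6-/- macrophages for 4 genes, Cd86, Cd83, Pdcd1lg2 and Icosl, and lower for 5. In Zcchc6+/+ macrophages the mean of Havcr2 exceeded that of 97.4% of genes on the array, Cd274 96.6%, Icosl 92.7%, Cd80 90.4%, Cd83 79.0%, Cd86 69.6%, Pdcd1lg2 64.0%, Cd276 61.6% and Cd40 53.5%. These positions depend on the probes of each gene and are not an order of transcript abundance. The median log2 difference was -0.053, beside -0.0063 over all genes. RNA was taken from the recovered cells in bulk, so that fewer cells expressing a gene and less RNA per cell cannot be told apart.

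**Figure D1:**
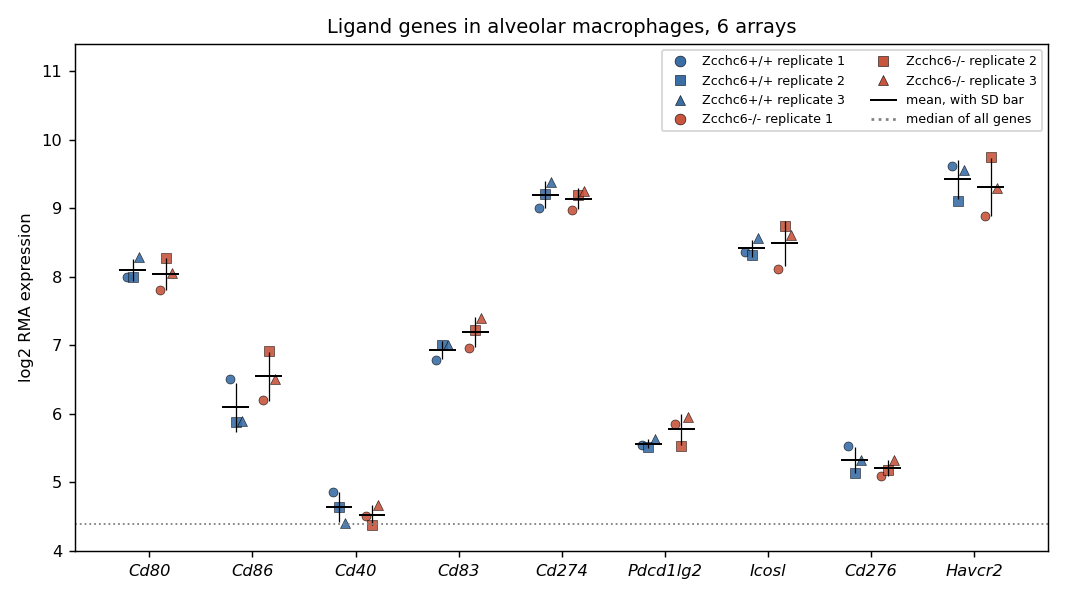
Log2 RMA expression (vertical axis) of the 9 ligand genes on each of the 6 arrays. Blue marks are Zcchc6+/+ and red marks Zcchc6-/- arrays, with the shape giving the replicate. Horizontal bars are means, vertical bars the SD of 3 arrays, and the dotted line is the median of all genes at 4.40. The genotypes overlap for every gene, and the widest spread is that of Cd86, over 1.04 log2 units.

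Cd86 encodes a ligand of both CD28, which activates T cells, and CTLA-4, which inhibits them. It had the largest difference of the 9. The Zcchc6+/+ arrays read 6.51, 5.88 and 5.90, and the Zcchc6-/- arrays 6.21, 6.92 and 6.51. Zcchc6-/- replicate 2 was highest, and only Zcchc6+/+ replicate 1 lay within the Zcchc6-/- range. The means were 6.10 ± 0.36 (SD, n = 3) and 6.55 ± 0.36 (SD, n = 3), a log2 difference of 0.45 (standard error 0.23), or 1.37-fold. Its 95% interval ran from -0.091 to 0.99, which at the upper end is 1.99-fold. The unadjusted p was 0.0906 in limma. The array of low Xist was the highest of its genotype in each group. Among the 4 arrays of high Xist the Cd86 difference was 0.47 (5.89 against 6.36), and between the pair of low Xist it was 0.41. With Xist as a covariate the Cd86 difference was 0.45 with an unadjusted p of 0.00761 and an adjusted p of 0.834 in limma. Leaving out Zcchc6-/- replicate 1, the array with T cell transcripts, gave 0.62 for Cd86, and leaving out Zcchc6-/- replicate 2 gave 0.26.

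Cd80 encodes the other ligand of CD28 and CTLA-4. It read 8.005, 8.001 and 8.283 on the Zcchc6+/+ arrays and 7.806, 8.270 and 8.055 on the Zcchc6-/- arrays. Zcchc6-/- replicate 1 was the lowest array and Zcchc6+/+ replicate 3 the highest, just above Zcchc6-/- replicate 2. The log2 difference was -0.053 (standard error 0.15), with an interval from -0.40 to 0.30. A Cd80 change beyond 1.32-fold lower or 1.23-fold higher lay outside it. The direction turned without Zcchc6-/- replicate 1 (0.066) or Zcchc6+/+ replicate 3 (0.040). Cd80 and Cd86 both lie on chromosome 16, but their values did not run in parallel. Zcchc6+/+ replicate 3 was the highest array for Cd80 and among the lowest for Cd86.

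Icosl encodes the ligand of ICOS, a receptor of activated T cells. The Zcchc6+/+ arrays lay close together at 8.36, 8.33 and 8.56, whereas the Zcchc6-/- arrays were spread over 8.11, 8.74 and 8.62. Zcchc6-/- replicate 1 was the lowest of all 6, and the other Zcchc6-/- arrays were the highest. The log2 difference was 0.073 (standard error 0.18), with an interval from -0.34 to 0.48. Leaving out Zcchc6-/- replicate 1 gave 0.26 for Icosl, and leaving out Zcchc6-/- replicate 2 gave -0.052.

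Cd274 and Pdcd1lg2 encode PD-L1 and PD-L2, which bind PD-1 and restrain T cells. The genes are direct neighbours on chromosome 19, with 0 protein-coding genes between them in the RefSeq table of GRCm38.p6. Cd274 read 8.999, 9.212 and 9.392 on the Zcchc6+/+ arrays and 8.976, 9.196 and 9.261 on the Zcchc6-/- arrays, and the genotypes spanned nearly the same range. The log2 difference was -0.057 (standard error 0.14), with an interval from -0.38 to 0.27, or 1.30-fold lower to 1.20-fold higher. Its sign turned without Zcchc6-/- replicate 1 (0.027) or Zcchc6+/+ replicate 3 (0.039). For Pdcd1lg2 the Zcchc6+/+ arrays agreed closely, at 5.54, 5.52 and 5.64, with an SD of 0.062. The Zcchc6-/- arrays read 5.85, 5.52 and 5.95, of which replicates 1 and 3 were above every Zcchc6+/+ array and replicate 2 was within their range. The difference was 0.21 (standard error 0.13), with an interval from -0.10 to 0.52. Without Zcchc6-/- replicate 2 the Pdcd1lg2 difference was 0.33, with an unadjusted p of 0.0221 and an adjusted p of 0.737 in limma. That array held the lowest Zcchc6-/- value of Pdcd1lg2, so leaving it out was bound to raise the difference. It was also the Zcchc6-/- array of low Xist, while the Zcchc6+/+ array of low Xist was kept. Leaving out Zcchc6-/- replicate 3 lowered the Pdcd1lg2 difference to 0.12, with an unadjusted p of 0.419 in limma.

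The sequences upstream of these neighbours are shown because the order of the arrays differed between the genes. Zcchc6-/- replicate 1 was the lowest array for Cd274, though only narrowly (8.976, next 8.999), and the second highest for Pdcd1lg2. Whether the sequences bear on this order was not tested. Havcr2 is added as the gene with the widest range over the arrays among those with a sequence. The choice was made after the values were seen. RefSeq (GRCm38.p6) windows of 250 bases before to 50 after the start of a gene were matched for 6 of the 9 genes. Each was searched on both strands for TTCNNNGAA (bound by STAT factors), GAAANNGAA (IRF), GGGNNTTCC (NF-kB) and GAGGAAGT (PU.1), where N is any base. Matches are in capitals.
Cd274, chr19:29367188-29367487, plus strand: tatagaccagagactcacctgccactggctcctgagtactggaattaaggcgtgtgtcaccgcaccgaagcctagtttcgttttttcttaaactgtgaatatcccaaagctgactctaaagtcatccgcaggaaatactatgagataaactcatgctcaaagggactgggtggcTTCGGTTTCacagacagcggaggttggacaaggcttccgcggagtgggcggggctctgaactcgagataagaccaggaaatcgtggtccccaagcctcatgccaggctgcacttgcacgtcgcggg
Pdcd1lg2, chr19:29410669-29410968, plus strand: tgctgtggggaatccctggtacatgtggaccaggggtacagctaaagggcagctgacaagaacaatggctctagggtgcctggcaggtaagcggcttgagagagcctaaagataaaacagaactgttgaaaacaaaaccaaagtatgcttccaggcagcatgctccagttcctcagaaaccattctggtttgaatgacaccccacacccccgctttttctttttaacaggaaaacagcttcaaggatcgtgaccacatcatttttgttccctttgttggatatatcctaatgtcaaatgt
Havcr2, chr11:46454681-46454980, plus strand: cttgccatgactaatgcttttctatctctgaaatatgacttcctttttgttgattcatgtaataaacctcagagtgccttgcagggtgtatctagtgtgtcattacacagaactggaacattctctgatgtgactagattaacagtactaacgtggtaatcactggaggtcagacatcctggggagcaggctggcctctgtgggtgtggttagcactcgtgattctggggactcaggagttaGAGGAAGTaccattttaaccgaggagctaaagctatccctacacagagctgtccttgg

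Cd274 held 1 IRF match, in reverse orientation, beginning 76 bases before the start, where 8.56% of all 32851 windows hold such a match. Havcr2 held 1 PU.1 match, beginning 8 bases before the start, which 3.20% of windows hold. In Pdcd1lg2, Cd80, Icosl and Cd276 the letters of these motifs were not found in the window. The Cd274 window had 15 CpG dinucleotides and the Pdcd1lg2 window 3, beside a median of 7 over all windows. Matches describe the letters only, and no binding was measured.

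Cd276 encodes B7-H3, a B7 protein whose receptor on T cells is not settled. Its values were 5.53, 5.14 and 5.32 on the Zcchc6+/+ and 5.10, 5.18 and 5.33 on the Zcchc6-/- arrays, with Zcchc6+/+ replicate 1 highest and the rest intermixed. The difference was -0.13 (standard error 0.13), with an interval from -0.43 to 0.18. Leaving out Zcchc6+/+ replicate 1 gave -0.027 for Cd276, and leaving out Zcchc6+/+ replicate 2 gave -0.22.

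Cd40 encodes the TNF receptor family member that is engaged by CD40 ligand on activated T cells. It read 4.85, 4.65 and 4.41 on the Zcchc6+/+ and 4.51, 4.38 and 4.67 on the Zcchc6-/- arrays, and the genotypes were intermixed. These levels lie near the median of all genes, 4.40, where RMA understates changes. The log2 difference was -0.12 (standard error 0.14), with an interval from -0.45 to 0.22, and it moved to -0.0100 when Zcchc6+/+ replicate 1 was left out and to -0.23 for Zcchc6+/+ replicate 3.

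Cd83 encodes an immunoglobulin family protein of mature dendritic cells that keeps CD86 and MHC class II on the surface by opposing the ubiquitin ligase MARCH1. It lies on chromosome 13, as does Zcchc6, with 144 protein-coding genes between them. The Zcchc6+/+ arrays read 6.789, 7.001 and 7.012, and the Zcchc6-/- arrays 6.960, 7.231 and 7.395. Zcchc6-/- replicates 2 and 3 were above every Zcchc6+/+ array, while replicate 1 fell between them. The means were 6.93 ± 0.13 (SD, n = 3) and 7.20 ± 0.22 (SD, n = 3), a difference of 0.26 (standard error 0.14) with an interval from -0.066 to 0.59. The unadjusted p was 0.102 in limma. Without Zcchc6-/- replicate 1 the Cd83 difference was 0.38, with an unadjusted p of 0.0199 and an adjusted p of 0.752. Leaving out Zcchc6-/- replicate 3 lowered it to 0.16, with an unadjusted p of 0.301 in limma.

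Havcr2 encodes TIM-3, an inhibitory receptor of T cells that is also present on myeloid cells, where it binds galectin-9 among other ligands. It read 9.62, 9.10 and 9.56 on the Zcchc6+/+ and 8.89, 9.74 and 9.30 on the Zcchc6-/- arrays. The Zcchc6-/- arrays held both the lowest and the highest value, 0.85 apart, and their SD was 0.43 against 0.28 in Zcchc6+/+. The log2 difference was -0.12 (standard error 0.23), with an interval from -0.67 to 0.43, the widest of the 9, so that a change of up to 1.59-fold lower lay within it. Without Zcchc6-/- replicate 1 the Havcr2 difference was 0.094.

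**Figure D2:**
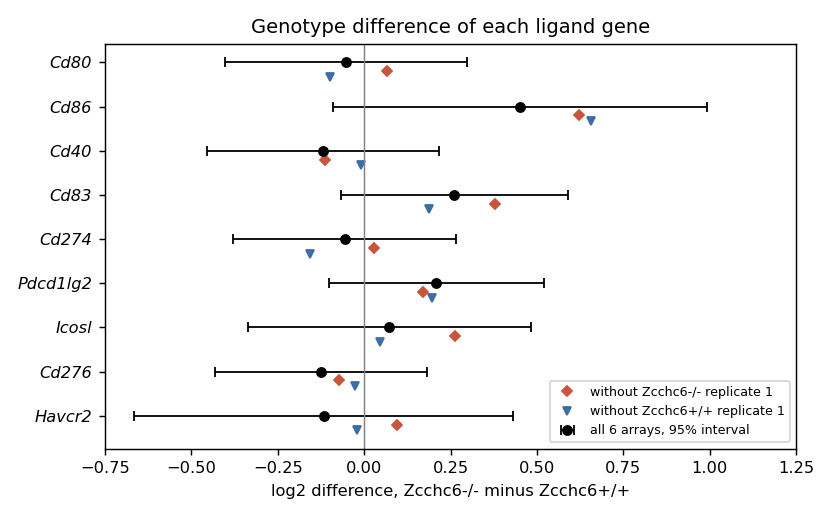
Log2 difference, Zcchc6-/- minus Zcchc6+/+ (horizontal axis), of each ligand gene. Black points are estimates from 6 arrays with their 95% intervals in limma, red diamonds leave out Zcchc6-/- replicate 1 and blue triangles Zcchc6+/+ replicate 1. All 9 intervals include 0, and Cd86 has the largest estimate at 0.45.

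Within the arrays of high Xist and within the pair of low Xist, Cd86, Cd83 and Cd276 kept the direction of the pooled difference in both, with Cd83 at 0.17 and 0.44 and Cd276 at -0.017 and -0.34. The other 6 genes had opposite directions in the subsets, for example Havcr2 at -0.24 and 0.13 and Pdcd1lg2 at 0.32 and -0.019. The pair of low Xist is 1 array per genotype and allows no test.

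The deviations of the Zcchc6-/- arrays were shared by several of the genes. Zcchc6-/- replicate 1 was the lowest of the 6 arrays for 5 of the 9 genes, Cd80, Cd274, Icosl, Cd276 and Havcr2, where it was the lowest for 25.7% of all genes. It was lowest only narrowly for Cd274 (8.976, next 8.999) and Cd276 (5.10, next 5.14). It was above the Zcchc6+/+ mean for Cd86, Cd83 and Pdcd1lg2. Its median deviation from the Zcchc6+/+ mean over the 9 genes was -0.23, against 0.17 in Zcchc6-/- replicate 2 and 0.060 in replicate 3. Zcchc6-/- replicate 2 was the highest array for Cd86, Icosl and Havcr2, that is for 3 genes, and for 18.5% of all genes. Zcchc6-/- replicate 1, the array lowest for those 5 genes, is the one that carried the T cell transcripts, with 13 of 14 markers highest there. It also correlated least with the other arrays. The part of those transcripts, or of that wider deviation, in the lower ligand levels was not tested.

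Without that array, 3 of the 9 genes, Cd86, Cd83 and Icosl, had both Zcchc6-/- values above all Zcchc6+/+ values, against 21.0% of all genes that then did not overlap in either direction. Cd86 and Cd83 had an unadjusted p under 0.05 and a higher mean, 2 of the 9 against 2.92% of all genes, but their adjusted p were 0.776 and 0.752 in limma. That array held the lowest Zcchc6-/- value of Cd86, Cd83 and Icosl, so leaving it out was bound to raise their differences. These counts thus follow in part from the choice of array. The margin of Cd86 was small, since the lower Zcchc6-/- value and the highest Zcchc6+/+ value both round to 6.51. Dendritic cells express Cd80, Cd86, Cd40 and Cd83 strongly, and the mean of 11 dendritic cell markers was 4.65 to 4.78 on the Zcchc6+/+ and 4.57 to 4.82 on the Zcchc6-/- arrays. The mean of 8 B cell markers was 4.02 to 4.22 and 4.02 to 4.15. Zcchc6-/- replicate 2, the array highest for Cd86, had the lowest mean of dendritic cell markers, 4.57. Zcchc6-/- replicate 3, the array highest for Cd83, had the highest, 4.82. The part of dendritic or B cells in the ligand levels was not tested. Over the 6 arrays the means of the other lists were 5.07 to 5.24 for monocytes and interstitial macrophages, 3.9 to 4.2 for neutrophils, 3.44 to 3.78 for NK cells and 5.83 to 6.31 for lung epithelium. The mean was higher in Zcchc6-/- for 10 of 10 lung epithelium markers, beside 12157 of all 25206 genes. It was higher for 6 of 10 markers of monocytes and interstitial macrophages, 5 of 9 of neutrophils and 2 of 6 of NK cells. In the same order, 1, 3, 1 and 0 of these markers did not overlap between genotypes, beside 10.2% of all genes. The part of these cells in the ligand levels was not tested.

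**Figure D3:**
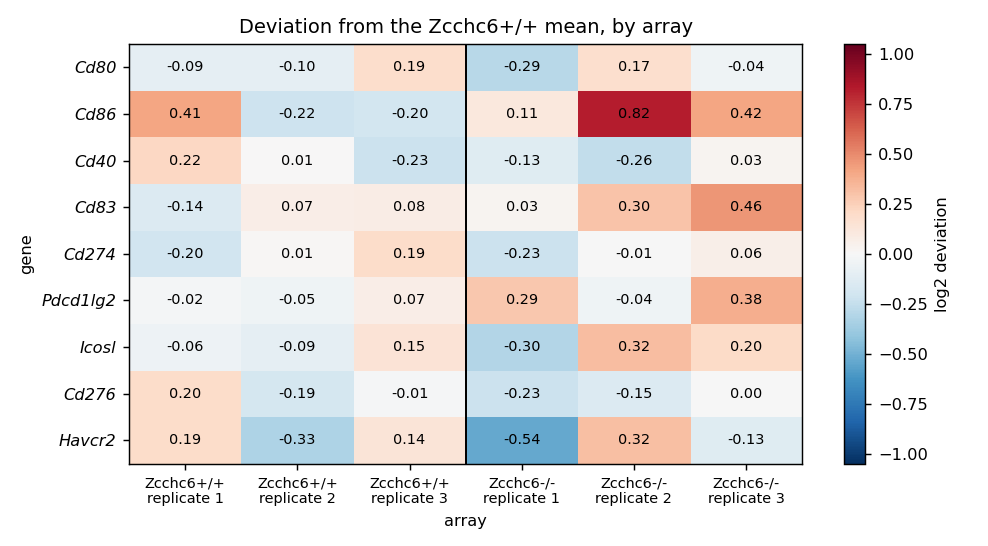
Deviation of each array from the Zcchc6+/+ mean of the gene, in log2 units, for the 9 ligand genes (rows) on the 6 arrays (columns). Red is above and blue below that mean. Zcchc6-/- replicate 1 is below it for 6 of the 9 genes, by most for Havcr2, and Zcchc6-/- replicate 2 is furthest above it for Cd86.

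The genes closest in pattern were sought for Cd86 and Havcr2, the members with the widest range over the arrays. Likeness was the root mean square difference of deviations from each gene's own mean over 6 arrays, among 20765 genes with an established symbol. Closest to Cd86 were Clec5a, a myeloid C-type lectin receptor, at 0.083 log2 units, Pdk4, a kinase that restrains pyruvate dehydrogenase, at 0.11, and Fam167a at 0.11. Closest to Havcr2 were Sh3bp5 at 0.027, Ube2a, a ubiquitin-conjugating enzyme, at 0.050, and Pgk1, a glycolytic enzyme, at 0.060. With 6 arrays and this many candidates, such likeness is a description only.

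The wider pathway also held no gene that passed adjustment, although some of its differences were larger than those of the ligand genes. Of 86 further measured genes on 6 lists, 0 had an adjusted p under 0.05. At an unadjusted p under 0.05, 1 was higher and 4 were lower, beside 5.03% of all genes in either direction, and 6 did not overlap between genotypes, beside 10.2% of all genes. Their median log2 difference was -0.029. Among 14 CD28 family receptors and other ligands (median -0.063) the smallest p was that of Pdcd1, the gene of PD-1. It read 4.00, 4.17 and 4.11 on the Zcchc6+/+ and 3.91, 3.78 and 3.73 on the Zcchc6-/- arrays, a difference of -0.29 (adjusted p = 0.973 from limma) at levels below the median of all genes. Vsir, the gene of the inhibitory B7 protein VISTA, was also without overlap, with a difference of -0.15 from 9.02 to 8.86. Tnfrsf14, the HVEM receptor, had -0.18.

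Cd28, the receptor of Cd80 and Cd86, was at 6.42 in Zcchc6-/- replicate 1 and at 3.61 to 4.02 on the other 5 arrays. Cd27, a T cell co-receptor, was at 7.49 on the same array and at 2.37 to 3.96 elsewhere, and Icos at 5.15 and at 4.21 to 4.80. Their differences of 0.87, 1.09 and 0.045 became -0.0089, -0.40 and -0.22 without that array, the array of the T cell markers.

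Of 16 genes of TNF superfamily co-stimulation (median 0.0051), Tnfrsf18, the gene of the receptor GITR, was higher on each Zcchc6-/- array. It read 6.28, 6.25 and 6.31 against 6.62, 6.53 and 6.89, a difference of 0.40 (standard error 0.12, adjusted p = 0.902 from limma), which was 0.43 without Zcchc6-/- replicate 1. Tnfsf8 and Tnfrsf8, the CD30 ligand and its receptor, had -0.34 and -0.24 at levels around or below the median of all genes. Among 9 measured TIM family genes and Havcr2 partners (median -0.052), Ceacam1, a proposed partner of TIM-3, had -0.50 (adjusted p = 0.997 from limma), with 7.65, 7.09 and 7.66 on the Zcchc6+/+ and 6.74, 7.36 and 6.82 on the Zcchc6-/- arrays. Lgals9, the gene of galectin-9, had -0.21 and, like Havcr2, was lowest on Zcchc6-/- replicate 1, at 8.80. Fgl1 had -0.17.

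Adhesion molecules and other checkpoint ligands formed a further list (14 genes, median -0.024). Cd24a, a mucin-like surface protein that binds Siglec receptors, read 8.82, 8.34 and 8.44 on the Zcchc6+/+ and 7.57, 7.93 and 7.84 on the Zcchc6-/- arrays. All Zcchc6-/- arrays were lower, and the difference was -0.76 (standard error 0.16, adjusted p = 0.750 from limma). Cd200, the ligand of an inhibitory receptor of macrophages, read 7.33, 6.83 and 7.38 against 6.80, 6.54 and 5.76, a difference of -0.81 (standard error 0.28, adjusted p = 0.951 from limma). Its genotypes were separated only narrowly, by 6.83 against 6.80, and its lowest value was in Zcchc6-/- replicate 3. Raet1e, an NKG2D ligand, had 0.44, with overlap.

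Downstream of CD40, 15 signalling genes had a median of -0.024. Traf1 was higher on each Zcchc6-/- array (difference 0.30) and Traf5 lower on average (-0.39, adjusted p = 0.981 from limma), both adaptors of TNF receptors, and the NF-kB subunit gene Rela had -0.12. Among 18 regulators of ligand transcription and turnover (median -0.052), Ciita, the transactivator of MHC class II, had -0.49, Cmtm6, which stabilises PD-L1 at the surface, -0.22, and Spi1, the gene of PU.1, -0.14 (adjusted p = 0.997 from limma for each).

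**Figure D4:**
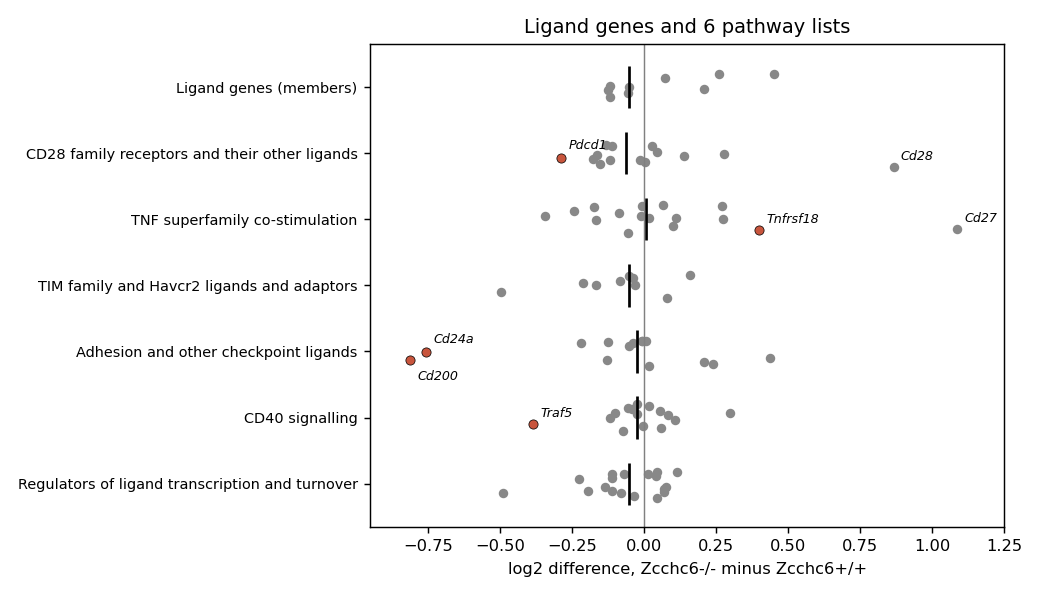
Log2 difference, Zcchc6-/- minus Zcchc6+/+ (horizontal axis), of the 9 ligand genes and of the 86 genes on 6 pathway lists. Each point is a gene, spread vertically at random, black bars are list medians, and red points have an unadjusted p under 0.05. The medians lie between -0.063 and 0.0051, and no ligand gene is red.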

How the data were processed

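Alveolar macrophage RNA of 3 Zcchc6+/+ and 3 Zcchc6-/- samples was hybridized to Affymetrix Mouse Gene ST 2.0 arrays. The authors deposited log2 values per Entrez Gene, summarised by RMA (affy 1.36.1 of Bioconductor 2.11, under R 2.15.1) with the Brainarray mapping 17.0.0. RMA brings the probe values of the arrays to a shared distribution before they are combined, so a shift common to most genes is largely removed. Changes near background are understated. The array medians of the deposited gene values still ranged from 4.36 to 4.45. With these medians centred, the median log2 difference of the ligand genes was -0.036, against -0.053 without. For that mapping, no genome build is stated in the sources. Symbols came from the platform annotation and the RefSeq gene table of GRCm38.p6 and were found for 23740 of 25206 rows.

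All 25206 genes were fitted with limma 3.58.1 (R 4.3.3, lmFit and eBayes, no covariates, no filter), with Benjamini-Hochberg adjustment across every gene. The procedure was run on simulated arrays with independent noise and planted changes larger than any difference of the 9 ligand genes. That run gives no power at the differences reported here. The 9 ligand genes, 6 pathway lists (87 genes, 86 measured) and 8 marker lists were chosen with earlier results of these data known. Genes named are the 9 members, the 3 of each pathway list with the smallest p, the 3 genes closest in pattern to each of the 2 members with the widest range, and Zcchc6. Cd28, Cd27, Icos and Olfr43 were added after their values were seen. Xist was added as a covariate, with Ddx3y beside it, and Siglecf, Itgax and Marco only as examples of a marker list. Lists are described by counts and medians, without a set test. There were 15 alternative settings, which covered the filter, the variance model, array weights, normalization, a replicate block, Xist as a covariate and each array left out.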

Additional observations from a re-analysis of the deposited data

How the results depend on the processing

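Across 15 alternative settings the 9 ligand genes gave 135 differences, of which 0 had an adjusted p under 0.05 in limma (lowest 0.642) and 6 an unadjusted p under 0.05. The sign turned in 7 of the 135. With array weights Cd274 had 0.021, and the other 6 turns came with 1 array left out. Over the arrays left out, Cd80 ranged from -0.17 to 0.066, Cd274 from -0.16 to 0.039, Havcr2 from -0.33 to 0.094 and Icosl from -0.052 to 0.26, while Cd86 (0.26 to 0.66), Cd83 (0.16 to 0.38), Pdcd1lg2 (0.12 to 0.33), Cd40 (-0.23 to -0.0100) and Cd276 (-0.22 to -0.027) kept their sign. The median of the members ranged from -0.059 without Zcchc6-/- replicate 3 to 0.094 without Zcchc6-/- replicate 1, and it was 0.021 with array weights. The number of members higher at an unadjusted p under 0.05 was 1 with array weights (Cd83) and 1 with Xist as a covariate (Cd86), where 3.55% and 2.42% of all genes were. With 1 array left out it ranged from 0 to 2. Leaving out Zcchc6-/- replicate 1 gave 2 (2.92% of all genes), and leaving out Zcchc6+/+ replicate 1 (Cd86, 1.87% of all genes) or Zcchc6-/- replicate 2 (Pdcd1lg2, 3.52%) gave 1. In each case the array left out held the highest Zcchc6+/+ or the lowest Zcchc6-/- value of the gene. Its removal was bound to raise the difference. Members without overlap ranged from 0 to 3, with 3 when Zcchc6-/- replicate 1 was left out and 1 for Zcchc6+/+ replicate 1 or Zcchc6-/- replicate 2, where 18.1% to 22.1% of all genes did not overlap. Genes called over the whole table ranged from 0 to 1, the latter without Zcchc6-/- replicate 1 (Olfr43, chosen after its value was seen). The cause of these shifts was not tested.

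The labels do not say whether equal replicate numbers mark paired samples, and 3 arrays per genotype are too few to decide it. Same-numbered arrays had correlations of 0.090, -0.23 and 0.046 between their deviations, and 2 of 6 arrays correlated best with their own number. With a replicate block the count of genes called stayed at 0, and Cd86 had 0.45 with an adjusted p of 0.9995. Precision is limited by 3 arrays per genotype, and no detection call or probe-level signal was used.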
